A study of Mus musculus with 8 samples.

Results

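Early granulocyte genes were examined in RNA-seq libraries of medial knee cartilage caps from mice with surgically induced osteoarthritis. The group held 7 of the 50462 gene identifiers in the deposited table: Elane, Mpo, Prtn3 and Ctsg, which encode proteins of the azurophil granule; Ms4a3, a membrane protein of granulocyte and monocyte progenitors; and the transcription factors Cebpe and Gfi1. The genes were listed by name as promyelocyte granule genes and early myeloid regulators, with earlier results of these data known, and all 7 were found and passed the filter on low counts. Each library came from 1 male wild-type C57Bl/6J mouse. The 4 naive mice had no surgery and were sampled at 11 weeks of age (day 0), and the 4 DMM mice had the left medial meniscus destabilised by cutting its tibial ligament at 11 weeks and were sampled 42 days later, at 17 weeks. There was no sham-operated group among these samples, so surgery and the added age cannot be told apart.

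Azurophil, or primary, granules are made at the promyelocyte stage of neutrophil development in bone marrow, before the secondary granules appear. Neutrophil elastase, proteinase 3 and cathepsin G are serine proteases stored there in active form, and myeloperoxidase makes hypochlorous acid from hydrogen peroxide and chloride. Their mRNAs are made mostly by these early marrow cells and are shut off as the neutrophil matures, so circulating neutrophils carry the proteins with little of the mRNA. Cebpe and Gfi1 are needed for granulocytes to mature past this stage, and articular cartilage itself has neither blood vessels nor marrow.

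The promoters of the 4 genes that encode granule enzymes are shown as the core of the group. RefSeq (GRCm38.p6) gave promoters for 6 of the 7 genes, and the 250 bases before each start were searched on both strands for 6 motifs: C/EBP (TTNNGNAA), PU.1 (GAGGAA), RUNX (TGTGGT), MYB (CAACTG), GFI1 (AAATCA) and the TATA box (TATAAA). Each sequence reads 5′ to 3′ on the strand of its gene, and capitals mark motif matches, which did not overlap each other.
Elane, chr10:79886062-79886311, strand +: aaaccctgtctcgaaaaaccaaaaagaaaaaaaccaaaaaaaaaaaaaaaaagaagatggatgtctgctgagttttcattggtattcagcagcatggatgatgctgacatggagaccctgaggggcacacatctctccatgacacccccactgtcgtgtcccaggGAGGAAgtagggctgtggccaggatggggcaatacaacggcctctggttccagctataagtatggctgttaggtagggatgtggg
Prtn3, chr10:79879417-79879666, strand +: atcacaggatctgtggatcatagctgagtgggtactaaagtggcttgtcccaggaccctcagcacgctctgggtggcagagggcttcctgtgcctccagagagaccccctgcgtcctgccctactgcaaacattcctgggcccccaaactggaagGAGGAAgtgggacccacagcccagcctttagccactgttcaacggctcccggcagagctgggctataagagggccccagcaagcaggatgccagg
Mpo, chr11:87793534-87793783, strand +: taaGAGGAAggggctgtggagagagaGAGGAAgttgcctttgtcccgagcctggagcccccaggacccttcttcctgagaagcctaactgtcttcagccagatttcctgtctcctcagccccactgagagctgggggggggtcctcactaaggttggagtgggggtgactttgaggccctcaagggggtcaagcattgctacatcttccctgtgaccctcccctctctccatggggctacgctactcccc
Ctsg, chr14:56102575-56102824, strand -: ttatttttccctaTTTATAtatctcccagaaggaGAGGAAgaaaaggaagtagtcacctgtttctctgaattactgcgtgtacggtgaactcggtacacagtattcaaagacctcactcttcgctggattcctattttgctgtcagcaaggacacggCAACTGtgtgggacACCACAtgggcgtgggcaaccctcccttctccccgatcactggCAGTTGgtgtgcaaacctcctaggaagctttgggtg

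The letters GAGGAA occurred in the windows of 4 of the 6 genes, the 4 shown, compared with 23.3% of the 32851 promoters in the reference table. They were in none of the 3 windows of Gfi1 and Ms4a3. In Elane and Prtn3, which lie 3073 bases apart on chromosome 10, the match began 85 and 95 bases before the start. Mpo held it at 224 and 247 bases and Ctsg at 216 bases before the start. These distances are from the RefSeq start, whereas the gene positions given with the values below are from GENCODE, whose start lies inside the windows of Elane and Mpo. The window of Prtn3 lies wholly within its GENCODE gene, and for Ctsg the starts coincide. The Ctsg window also held 2 MYB matches, 1 RUNX match and 1 TATA match on the opposite strand. A C/EBP match was found in Ms4a3 and in 1 of the 2 Gfi1 windows, compared with 36.8% of all promoters, and no GFI1 match was found in any window. Such matches describe the letters only, and binding was not measured.

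The libraries held 12479400 to 16548000 estimated counts. The identifier ENSMUSG00000119584 was the most abundant in every library except DMM replicate 3. It took 10.1% to 17.9% of counts in naive libraries and 6.97% to 8.65% in DMM replicates 1, 2 and 4. In DMM replicate 3 the most abundant identifier took 4.79%. Shares of counts given below include these identifiers. Naive replicate 2 stood apart with 16770 genes at 10 or more counts, against 18245 to 19271 elsewhere. The labels give the cells as chondrocytes, and the tissue carried the 11 chondrocyte markers listed, with Col2a1 and Acan among them, but also osteoblast, erythroid and neutrophil transcripts in every library. The 15 late neutrophil genes summed to between 0.485% and 1.25% of counts, and the 7 early genes to between 0.0666% and 0.195%. In bulk tissue, fewer cells of a type and less RNA per cell cannot be told apart.

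Transcripts of the azurophil granule were lower in DMM than in naive cartilage. Of the 7 genes, 6 were called lower (DESeq2, adjusted p of 0.05 or less and 1.5-fold or more) and none higher. Over all 17760 genes tested, 5.92% were called lower. Called higher were 7.75%. The 6 genes fell to between 45.9% and 53.8% of the naive level, and Gfi1 did not pass the test. For each of these 6 genes all 4 DMM libraries lay below all 4 naive libraries, which was the case for 10.3% of tested genes.

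Mpo (ENSMUSG00000009350, chromosome 11, 87793581 to 87804413, GRCm38) was the most abundant of the 7. It had 17322, 20106, 21094 and 19034 normalised counts (scaled by median-of-ratios size factors) in naive replicates 1 to 4 and 6396, 6613, 9537 and 14465 in DMM replicates 1 to 4. DMM replicates 1 and 2 were the lowest, and DMM replicate 4 stood between them and the naive libraries. The log2 fold change was -1.07 (SE 0.23, DESeq2 adjusted p = 6.14e-05), or 47.7% of the naive level with a 95% interval of 35.1% to 64.8%. Of the 31-base words of Mpo transcripts, 12.1% also occur in other genes, mainly the antisense gene Gm11505. Gm11505 averaged 17.8 naive and 13.1 DMM normalised counts.

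The serine proteases fell by similar amounts. Elane (ENSMUSG00000020125, chromosome 10, 79886247 to 79888215), neutrophil elastase, had 3273, 3938, 3418 and 3083 normalised counts across naive libraries and 1119, 1400, 1818 and 2652 in DMM libraries. Its log2 fold change was -0.97 (SE 0.22, DESeq2 adjusted p = 0.000238). The naive libraries were close to each other, whereas the DMM libraries spanned a range of more than 2-fold.

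Prtn3 (ENSMUSG00000057729, chromosome 10, 79874476 to 79883174), proteinase 3, had 1205, 1611, 1506 and 1314 normalised counts in naive libraries. In DMM libraries it had 630.3, 582.6, 630.6 and 844.8. Its log2 fold change was -1.07 (SE 0.15, DESeq2 adjusted p = 3.49e-10), the smallest adjusted p of the 7 genes. The DMM libraries lay closer together for Prtn3 than for Elane, its neighbour on the chromosome.

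Ctsg (ENSMUSG00000040314, chromosome 14, 56099881 to 56102574), cathepsin G, had 784.4, 1010, 947.2 and 952.4 normalised counts in naive libraries. In DMM libraries it had 367.4, 276.3, 420.7 and 630.0. Its log2 fold change was -1.12 (SE 0.22; DESeq2, adjusted p = 8.51e-06), the largest decrease of the 7 genes, although the intervals of the 6 lower genes overlapped. Elane, Ctsg and Cebpe share no 31-base words with other genes, and Prtn3 shares 7.48% with Plppr3, which overlaps it.

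Ms4a3 (ENSMUSG00000024681, chromosome 19, 11629496 to 11640851) followed the granule enzymes. Its normalised counts were 359.7, 411.1, 400.3 and 361.7 for naive libraries and 142.6, 151.6, 226.4 and 302.3 in DMM libraries. Its log2 fold change was -0.90 (SE 0.22, DESeq2 adjusted p = 0.000902). As for Mpo and Elane, DMM replicate 1 was the lowest library and DMM replicate 4 the highest of its group.

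**Figure D1:**
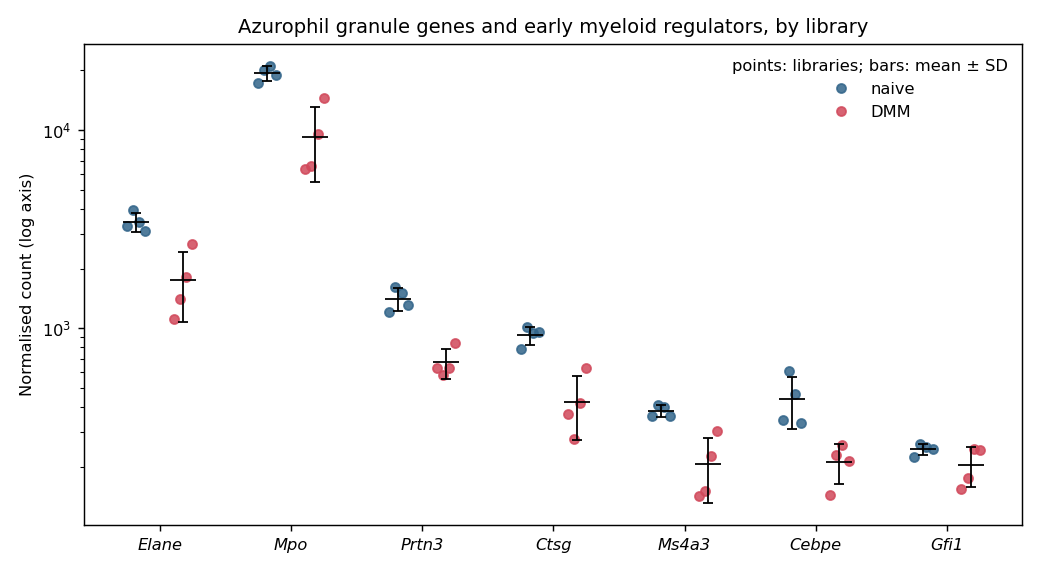
Normalised counts (log axis) of the 7 genes in the 4 naive (blue) and 4 DMM (red) libraries, with points for libraries and bars for the mean ± SD. The groups are apart for Elane, Mpo, Prtn3, Ctsg, Ms4a3 and Cebpe and overlap for Gfi1.

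Of the 2 transcription factors, Cebpe was called lower and Gfi1 was not, and the difference between them was not tested. Their 95% intervals overlapped slightly, at -1.501 to -0.59 and -0.61 to 0.09 on the log2 scale. Cebpe (ENSMUSG00000052435, chromosome 14, 54710360 to 54712174), which drives the switch from primary to secondary granules, had 344.7, 609.3, 463.4 and 332.2 normalised counts in naive libraries. In DMM libraries it had 143.5, 230.0, 257.7 and 214.8. Naive replicate 2 was the highest and DMM replicate 1 the lowest. The log2 fold change was -1.05 (SE 0.23, DESeq2 adjusted p = 0.000139), and -0.85 without naive replicate 2.

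Gfi1 (ENSMUSG00000029275, chromosome 5, 107716657 to 107726036), a transcriptional repressor that is also used by stem cells and lymphocytes, had 223.4, 259.4, 252.6 and 244.9 normalised counts in naive libraries. In DMM libraries it had 155.1, 176.3, 244.5 and 242.8. DMM replicates 3 and 4 thus reached the naive range, and only replicates 1 and 2 lay below it. The log2 fold change was -0.26 (SE 0.18, DESeq2 adjusted p = 0.333). The 95% interval, 65.6% to 107% of the naive level, includes no change and a loss of about the 1.5-fold threshold.

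Gfi1 was also set against Mpo within each library, a ratio chosen after its values were seen and therefore not tested. Gfi1 counts were 1.20% to 1.29% of Mpo counts in naive libraries and 1.68% to 2.67% in DMM libraries, without overlap. Because Mpo itself fell to 47.7% of its naive level, any gene that changed little rises against it. The rise is therefore not particular to Gfi1. Of the other genes, Ms4a3 was 1.90% to 2.08% of Mpo in naive and 2.09% to 2.38% in DMM libraries. For Elane, Prtn3, Ctsg and Cebpe the ranges of this ratio overlapped between groups.

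Per kilobase of the longest transcript, the order of the 7 genes was the same in both groups. Naive levels were 7050 ± 587.1 normalised counts per kilobase for Mpo, 3484 ± 372.5 for Elane and 1375 ± 178.9 for Prtn3 (SD, n = 4). Ctsg followed with 921.6 ± 96.7, Cebpe with 352.5 ± 103.9, Ms4a3 with 254.9 ± 17.5 and Gfi1 with 85.7 ± 5.47 (SD, n = 4). In naive libraries only Cebpe and Ms4a3 overlapped among neighbours in this order. In DMM libraries Mpo overlapped Elane, Prtn3 overlapped Ctsg and Cebpe overlapped Ms4a3, with Mpo at 3365 ± 1367 and Gfi1 at 71.6 ± 16.03 normalised counts per kilobase (SD, n = 4).

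The libraries of a group also varied together. In DMM replicate 1, Mpo stood at 33.0% of its naive mean and Elane at 32.6%, and in DMM replicate 4 they stood at 74.6% and 77.3%. DMM replicate 4 was the highest DMM library for 5 of the 7 genes and DMM replicate 1 the lowest for 5. Naive replicate 2, the library with the fewest genes detected, was the highest naive library for 6 of the 7. Without it all 6 genes were still called.

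The same 6 genes, and not Gfi1, were called lower under each other tool, scaling and filter tried apart from 2 that are given with their values later, and in each fit that left out a library. Of all genes, 4.4% were called lower under edgeR, 4.6% under limma-voom, 5.28% with TMM factors, 2.65% with total count scaling, 5.04% with the total less its most abundant identifier, 2.68% without the filters of DESeq2, 6.07% with a minimum of 10 counts in 4 libraries, 11.2% by adjusted p alone and 6.01% with the replicate block. In the fits that left out a library, 5.14% were called lower without naive replicate 1, 4.72% without naive replicate 2, 5.7% without naive replicate 3, 6.9% without naive replicate 4, 4.55% without DMM replicate 1, 5.23% without DMM replicate 2, 6.97% without DMM replicate 3 and 7.13% without DMM replicate 4.

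**Figure D2:**
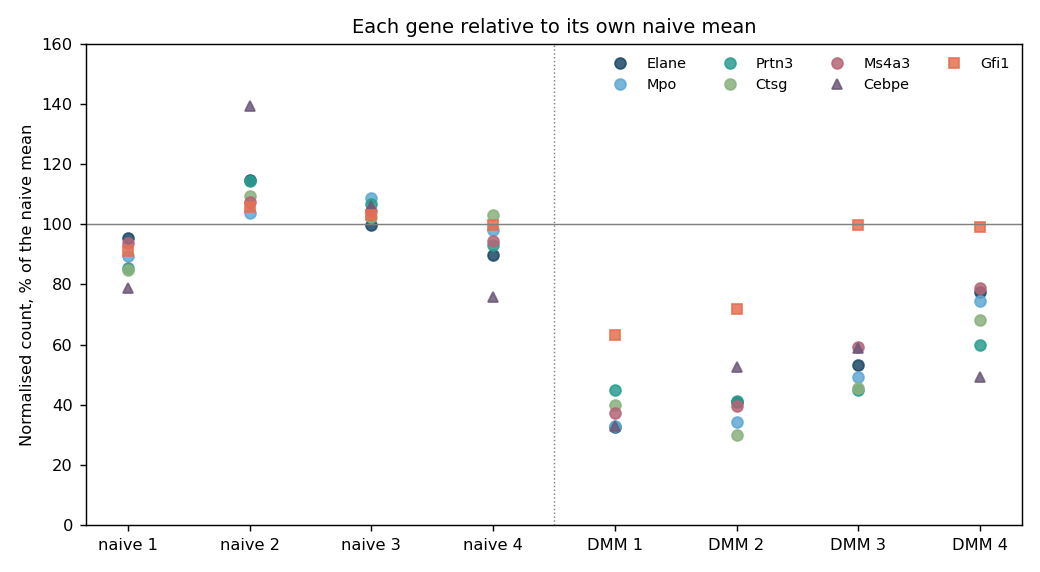
Normalised count of each of the 7 genes in each library as a percentage of its mean over the 4 naive libraries. Gfi1 (squares) stays near 100% in DMM replicates 3 and 4, where Mpo is at 49.2% and 74.6% and Cebpe (triangles) at 58.9% and 49.1%.

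Pearson correlations of log2(normalised count + 1) over the 8 libraries, which share the group difference, lay between 0.93 and 0.99 for the 10 pairs among Elane, Mpo, Prtn3, Ctsg and Ms4a3. Ms4a3 was at 0.99 with both Mpo and Elane. After group means were subtracted the 10 pairs lay between 0.76 and 0.99. Gfi1 correlated with these 5 genes at 0.60 to 0.92 after subtraction, and Cebpe at 0.20 to 0.57. The within-group correlations were lower for Cebpe than for Gfi1 in these 8 libraries, and the difference was not tested.

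Among 11024 other genes that averaged 100 or more normalised counts, the 5 most like the mean profile of the 7 genes were Clec12a, Trem3, Eif2b4, Adgrg3 and Mid1ip1, at correlations of 0.99 over 8 libraries. After group means were subtracted the correlations were 0.93 to 0.96. Clec12a encodes an inhibitory lectin receptor of myeloid cells and was at -0.75 on the log2 scale (DESeq2 adjusted p = 4.7e-05). Trem3 and Adgrg3 were also called, at -0.77 and -0.60. Eif2b4 (-0.27) and Mid1ip1 (-0.42) did not reach the fold threshold.

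Genes that work with the azurophil proteins were counted from a list of 8, of which 7 had an adjusted p, 5 were called lower and none higher. Their median log2 fold change was -0.61, compared with -1.05 for the 7 early genes and -0.02 for all tested genes. Of all tested genes, 5.92% were called lower. Prss57, a further serine protease of the azurophil granule, had 121.4, 210.2, 156.3 and 158.7 normalised counts in naive libraries and 38.1, 70.9, 91.4 and 97.5 in DMM libraries. Its log2 fold change was -1.11 (DESeq2 adjusted p = 0.0011), but 39.3% of its 31-base words also occur in Fstl3, its neighbour. The protease inhibitors Serpinb1a and Slpi changed by -0.78 and -0.74.

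Srgn, the proteoglycan core that packs granule proteases, and Lyz2, a lysozyme of neutrophils and macrophages, were close to the fold threshold at -0.61 and -0.59. Lyz2 shares 32.8% of its 31-base words with Lyz1, so its count is less certain. Ctsc, the dipeptidyl peptidase that activates the granule serine proteases, averaged 949.4 ± 82.6 naive and 879.1 ± 75.5 DMM normalised counts (SD, n = 4) and was not called (log2 fold change -0.11, DESeq2 adjusted p = 0.553). Cd63, a membrane protein of these granules and of lysosomes in most cells, was at 0.29 (DESeq2 adjusted p = 0.0712). Bpi, at 1.76 normalised counts or fewer, was not given an adjusted p. With TMM factors 3 of these genes were called lower, and Srgn and Lyz2 were not, at -0.58 and -0.56. The count was also 3 without naive replicate 2, without DMM replicate 1 and without DMM replicate 2.

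Among 13 myeloid regulators and growth factor receptors, none was called lower and 1, Klf4, was called higher, at 0.60 on the log2 scale (DESeq2 adjusted p = 0.00027), compared with 7.75% of all tested genes called higher. Klf4 lost its call without naive replicate 1 (0.51), naive replicate 3 (0.58), DMM replicate 2 (0.56) or DMM replicate 3 (0.55). Myb, a factor of immature blood cells, was at -0.34 (DESeq2 adjusted p = 0.0536), Runx1 at 0.34 and Csf1r at 0.20. By adjusted p alone 4 of the 13 fell, namely Spi1, Irf8, Csf2ra and Csf2rb, named here after their values were seen, and 2 rose, Klf4 and Runx1. By the same rule 11.2% of all tested genes fell and 11.4% rose. Spi1, which encodes PU.1, averaged 1239 ± 205.2 naive and 883.2 ± 58.5 DMM normalised counts (SD, n = 4), or -0.49 on the log2 scale (DESeq2 adjusted p = 0.00275), short of a 1.5-fold change.

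Most later neutrophil genes were lower as well. Of 15 genes of secondary granules, the cytosol and the mature surface, 11 were called lower, compared with 5.92% of all tested genes. The median log2 fold change of the 15 was -0.77. S100a9, Ngp and Ltf, the most abundant, changed by -0.84, -0.88 and -0.83. The 4 not called were Mmp8 (-0.58), Padi4 (-0.55), Cxcr2 (-0.49) and Mmp9. Mmp9 did not fall, at 0.06 (DESeq2 adjusted p = 0.873). It is also on the list of 7 osteoclast genes, of which 6 had an adjusted p (median log2 fold change 0.53). None of these 6 was below 0 and 1 was called higher, compared with 7.75% of all tested genes. The part of osteoclasts in the Mmp9 counts was not tested. With edgeR 7 of the 15 late genes were called and with total count scaling 6, against 4.4% and 2.65% of all genes called lower. Of the 7 early genes, 6 were called under both. Without DMM replicate 1, 6 of the 15 late genes and 6 of the 7 early genes were called, against 4.55% of all genes called lower.

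To compare early with late neutrophil genes directly, the fit was repeated with size factors taken from the 15 late genes. On that scale the 6 early genes lay between -0.36 for Ctsg and -0.16 for Ms4a3 on the log2 scale, and none was called (DESeq2 adjusted p from 0.252 to 0.606). The interval for Mpo ran from -0.85 to 0.17, so neither a further loss of Mpo relative to the late genes nor a small gain could be told from no difference. Gfi1 was at 0.50 (interval -0.02 to 1.03, DESeq2 adjusted p = 0.0973). Over all genes, 0.113% were called lower and 49.3% higher on this scale. A test against a 1.5-fold null called none of the 7 genes lower, and 0.0709% of all genes.

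The 7 early genes summed to 14.1% to 20.1% of the late neutrophil counts in naive libraries and to 10.7% to 16.02% in DMM libraries, which overlapped.

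**Figure D3:**
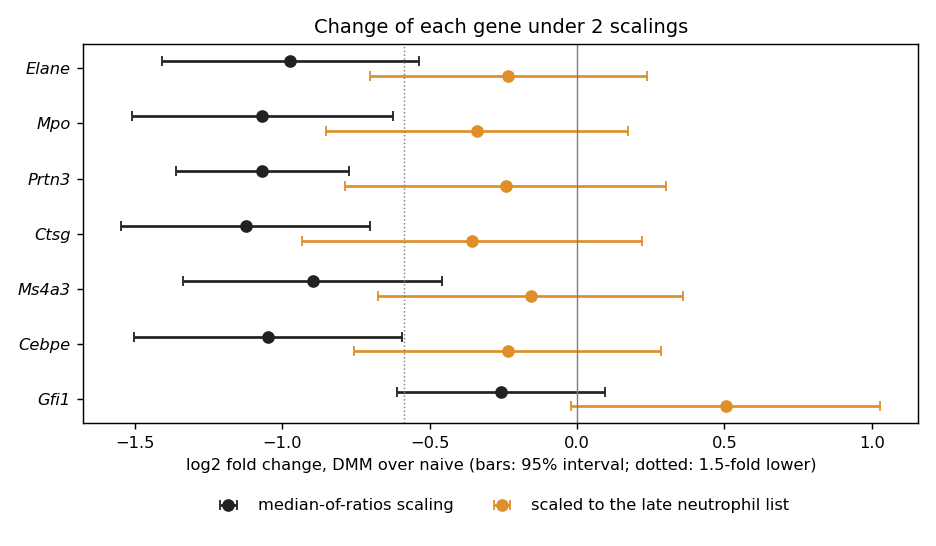
Log2 fold change of DMM over naive with 95% intervals for the 7 genes, with median-of-ratios scaling (black) and scaled to the late neutrophil list (orange). The intervals of all 7 genes include 0 on the second scale, and Gfi1 lies at -0.26 on the first scale and 0.50 on the second.

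Markers of other cells moved beside the granule genes. For the counts that follow, 5.92% of all tested genes were called lower and 7.75% higher. Of 9 erythroid genes tested, 8 were called lower (median log2 fold change -0.97), and 6 without naive replicate 1, DMM replicate 1 or DMM replicate 4. Their summed level was 154670 to 302641 normalised counts in naive and 79745 to 171152 in DMM libraries. All 9 osteoblast and osteocyte genes were called higher (median 1.06), at a summed 128650 to 219766 and 339380 to 425394 normalised counts. Of 11 chondrocyte genes 5 were called higher and 3 were below 0. Their summed level overlapped, at 83270.5 to 149725 normalised counts in naive and 131356 to 197836 in DMM libraries. The 9 B cell genes were all above 0 (median 0.43) with none called. They summed to 3243 to 4944 in naive libraries and to 6493, 8046, 4030 and 3581 in DMM replicates 1 to 4, the last 2 within the naive range. The monocyte and macrophage list had 1 of 8 called lower, and skeletal muscle genes were at a summed 39.9 to 466.6 in naive and 40.6 to 1258 in DMM libraries, highest in DMM replicate 1. The part of these other cells in the lower granule transcripts was not tested.

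Of the stem and progenitor genes, Cdk6, Kit and Cd34 were the most abundant, at log2 fold changes of -0.52, -0.42 and 0.28. None of these was called (DESeq2 adjusted p of 0.000255, 0.0107 and 0.408). Cdk6 and Kit were lower by adjusted p but short of a 1.5-fold change. Eosinophil genes varied widely in both groups, with Prg2, the major basic protein, spanning 1550 to 6141 naive and 257.1 to 3872 DMM normalised counts. Prg2, Epx and Prg3 had log2 fold changes of -1.06, -0.96 and -0.99, similar in size to those of the azurophil genes, but were not called (DESeq2 adjusted p of 0.363, 0.464 and 0.414).

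**Figure D4:**
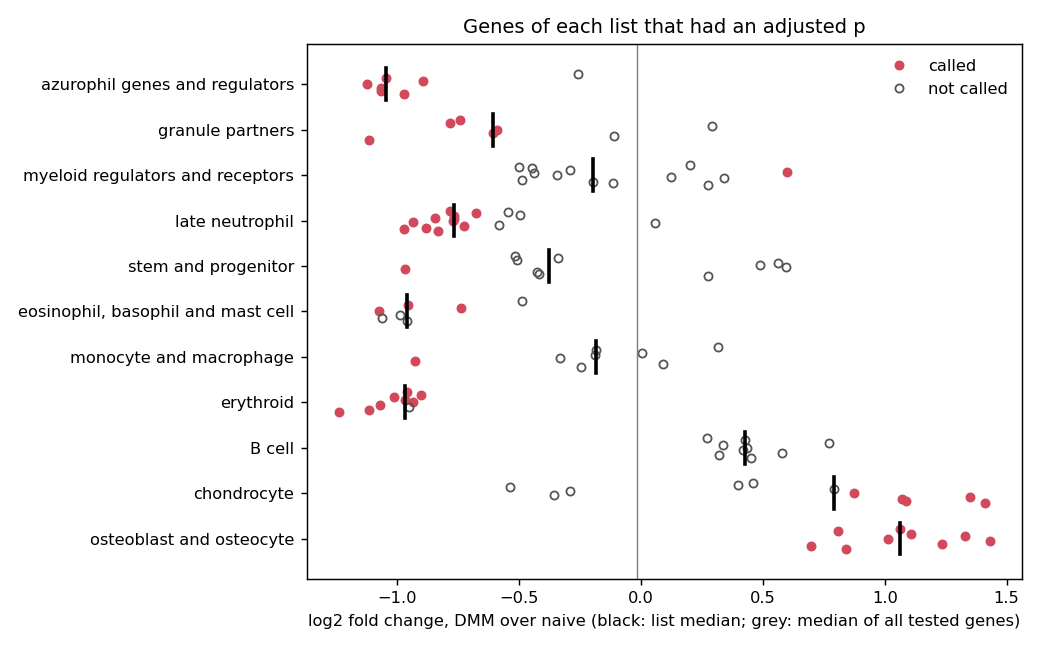
Log2 fold change of DMM over naive for each gene with an adjusted p in 11 lists, with called genes filled, list medians in black and the median of all tested genes in grey. The azurophil and erythroid lists have medians of -1.05 and -0.97, and the osteoblast and osteocyte list lies at 1.06.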

How the data were processed

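RNA was extracted from medial cartilage caps of single mice. Per the methods of the study, the authors trimmed reads with Trimmomatic (0.39), pseudo-aligned them with Kallisto (0.46.1) to a mouse GRCm38 (release 103) transcriptome and summed transcripts to genes with Tximport (1.14.0). The deposited values are estimated counts per gene, of which 39.2% are not whole numbers. The labels list GRCh38, a human build, although the identifiers are mouse Ensembl genes, and they name another library kit than the methods. Whether counting used strand is not given in the sources used here.

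Estimated counts were rounded and tested over all genes with DESeq2 (1.42.0, R 4.3.3; Wald test, default filters, Benjamini-Hochberg adjustment), which the methods of the study name. Fold changes are DMM over naive. Replicates are separate mice. Symbols were found for 48855 of 50462 identifiers. Coordinates, transcript lengths and shared words are from GENCODE vM21 (GRCm38). Named genes are the 7 early genes, the 5 most correlated genes, and every called granule partner and regulator. Up to 3 further granule partners and 3 further regulators were added by abundance. The late neutrophil, stem and progenitor, and eosinophil, basophil and mast cell lists gave their 3 most abundant genes. Further genes, such as Spi1 and Mmp9, were named after their values were seen. The genes and lists were chosen with earlier results of these data known. On simulated counts with 200 genes changed 2-fold, DESeq2 called 146 of them (130 of the 141 with a mean of at least 100) and 22 unchanged genes over 24131 genes. Over 18477 genes, edgeR called 134 of the 200 and 6 unchanged genes, and limma-voom called 129 of the 200 and 5 unchanged genes. edgeR (4.0.16), limma-voom (3.58.1), other scalings, filters and thresholds, a replicate block and fits leaving out each library were alternatives. Calls over the stem and progenitor list are not reported here.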

Additional observations from a re-analysis of the deposited data

Results flagged for a closer look

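Of 62 groups of 4 values examined for a single distant library, 5 held one by Dixon's test, where chance gives about 3.1. None was among the 7 early genes. Slpi had 524.2 normalised counts in naive replicate 2 (351.5 to 374.6 in the other naive libraries) and Cbfb had 1205 in the same library (993.2 to 1002). Runx1 had 2192 normalised counts in naive replicate 4 (1930 to 1962). Irf8 had 1351 in DMM replicate 2 (1044 to 1066) and Csf2rb had 820.7 in DMM replicate 3 (910.5 to 928.0).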

How the results depend on the processing

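The 6 calls among the early genes held under edgeR, limma-voom, TMM factors, both total count scalings, both filters, no fold threshold and each fit that left out a library, and Gfi1 was called in none of these. Across the fits that left out a library, log2 fold changes ran from -1.24 to -0.81 for Elane, -1.37 to -0.93 for Mpo, -1.19 to -0.996 for Prtn3, -1.37 to -0.97 for Ctsg, -1.14 to -0.75 for Ms4a3, -1.16 to -0.85 for Cebpe and -0.35 to -0.14 for Gfi1. Called lower were 3 to 5 granule partners and 6 to 14 late neutrophil genes, and called higher 0 to 1 regulators, in those fits. Under edgeR, adjusted p for the 6 genes lay at most at 0.0197.

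A test against a 1.5-fold null called 0 of the 7 genes (log2 fold changes as in the main test: Elane -0.97, Mpo -1.07, Prtn3 -1.07, Ctsg -1.12, Ms4a3 -0.90, Cebpe -1.05), with adjusted p of 0.194 or more. It called 94 genes in all, 80 higher and 14 lower, and 0 of the granule partners, late neutrophil genes and regulators. Its null is the threshold itself.

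Scaled to the late neutrophil list, which by construction sets those genes near 0, 0 of the 7 were called, with Elane at -0.23, Mpo at -0.34, Prtn3 at -0.24, Ctsg at -0.36, Ms4a3 at -0.16, Cebpe at -0.24 and Gfi1 reversed at 0.50. On that scale 10083 genes were called, 10060 higher (49.3% of those tested) and 23 lower (0.113%). Of the 8 listed granule partners 0 were called lower and 2 higher, and of the 13 regulators 7 were called higher. Of the 15 late neutrophil genes 0 were called lower and 1 higher.

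Total count scaling called 489 genes lower (2.65% of those tested), with 2 granule partners and 6 late neutrophil genes. It moved the median log2 fold change of tested genes from -0.02 to 0.14. It called 80.6% of its genes higher, compared with 56.7%. TMM factors and the total without the most abundant identifier called 3 granule partners lower, and edgeR called 7 late neutrophil genes. By adjusted p alone 4010 genes passed, and 1989 of these were lower (11.2% of all tested genes, with 11.4% higher). Of the 13 regulators 4 were lower and 2 higher.

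Replicate numbers 1 to 4 occur in both groups, but the deviations of same-numbered libraries correlated at 0.05, 0.06, -0.12 and 0.12, so the numbers were not taken as pairs. With the replicate block 2081 genes and 6 of the 7 early genes were called.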

Other observations

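Of 21 tested genes within 50 kb of the 7 early genes, 2 were called lower and none higher, compared with 5.92% of tested genes called lower. They were Mcpt8, a granule protease of basophils that lies 14608 bases from Ctsg, and Ms4a2, the beta chain of the IgE receptor of basophils and mast cells, 5777 bases from Ms4a3. Mcpt8 averaged 147.9 ± 59.1 naive and 70.2 ± 21.1 DMM normalised counts (SD, n = 4), with groups that overlapped (log2 fold change -1.08, DESeq2 adjusted p = 0.00887). Without naive replicate 2 it was at -0.90 and not called, and limma-voom did not call it either. Ms4a2 was at 113.3 ± 25.6 and 58.5 ± 17.2 (SD, n = 4; log2 fold change -0.96, DESeq2 adjusted p = 0.00307), and its groups did not overlap. Of the 7 eosinophil, basophil and mast cell genes with an adjusted p, 3 were called lower, namely Mcpt8, Ms4a2 and Cpa3. Cpa3 was at -0.74 (DESeq2 adjusted p = 0.0472), with groups that overlapped. Under limma-voom 1 gene of this list was called lower, against 4.6% of all genes. The mast cell genes Mcpt4, Cma1 and Tpsb2 had no adjusted p.

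Ly6c2, a surface protein of monocytes and their progenitors, was the gene of any list most like the profile of the 7 early genes, ranking 8 of 11024 at a correlation of 0.98. It changed by -0.93 (DESeq2 adjusted p = 1.3e-05) and was the gene of the monocyte and macrophage list that was called.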
